A study of Homo sapiens with 6 samples.

Results

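The ERBB receptors and their ligands were followed as 10 genes chosen by symbol from the 58676 genes of the table, namely the receptors EGFR, ERBB2, ERBB3 and ERBB4 and the ligands AREG, EREG, HBEGF, TGFA, BTC and NRG1. ERBB3 and AREG were put on the list because of their measured patterns, so that their values are given as descriptions without a test. RNA sequencing was performed on 2D cultures of A549, an established human lung adenocarcinoma line. A549 Rec (3 replicates) carries a human recoverin cDNA in a retroviral vector with puromycin selection, and A549 MOCK (3 replicates) carries the empty vector. The labels give 6 days of culture for both groups. Nothing in the sources used here says whether the cultures of a group were separate transductions, so that the spread between replicates may be that of 1 selected population of each kind.

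Values are TPM, a unit in which the reads of a gene are divided by its length and each library is scaled to 1000000, so that levels of different genes may be set side by side. The libraries held 15177371 to 18564988 reads, as recovered from the TPM. RCVRN, the transfected gene, was listed at 0 in all A549 MOCK libraries and at 322.2 to 339.1 TPM in the A549 Rec libraries. The values of a gene are given below in the order of replicates 1, 2 and 3. Mitochondrially encoded genes took 13.3% to 17.3% of the TPM in the replicate 1 and 2 libraries, 34.5% in A549 MOCK replicate 3 and 26.9% in A549 Rec replicate 3, which lowers the TPM of the remaining genes in both replicate 3 libraries. Values rescaled without the 37 mitochondrially encoded genes are therefore given beside the deposited ones. Of 6 epithelial markers, KRT7, KRT8, KRT18 and CDH1 were at a TPM of at least 108.6 in each library, whereas EPCAM was at 0.979 to 2.98 and KRT19 at or under 0.325. Of the alveolar type II markers, NAPSA was at 2.07 to 4.38 and the others (SFTPA1, SFTPA2, SFTPB, SFTPC and NKX2-1) were at or under 0.429. Of the leukocyte markers, CD68 was at 0.363 to 1.47, LYZ at or under 0.450 and PTPRC and CD3E at or under 0.0866. Of the endothelial markers, PECAM1 was at 0.384 to 0.732, VWF at or under 0.325 and CDH5 at or under 0.0312. Of the fibroblast markers, COL1A1 was at 2.21 to 5.14, and COL1A2, COL3A1 and DCN were at or under 0.111.

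ERBB receptors are membrane tyrosine kinases that bind growth factors of the EGF family, pair with each other and signal mainly through the RAS-ERK and PI3K-AKT pathways. EGFR binds AREG, EREG, HBEGF, TGFA and BTC, while ERBB3 and ERBB4 bind neuregulins such as NRG1. ERBB2 has no known soluble ligand and acts as a partner of the others, and ERBB3 has little kinase activity of its own and is known for recruiting PI3K. The ligands are made as membrane proteins and are released by ADAM proteases, and lung epithelial cells use them in growth and repair.

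AREG and EREG lie next to each other on chromosome 4 and moved together between libraries, as described below, and their promoters are shown for that reason. The windows hold bases 160 to 11 before the RefSeq start on the plus strand of GRCh38.p14, and capitals mark the letters TGACG, TGACGTCA or TATAAA on either strand.
EREG (chr4:74364985-74365134): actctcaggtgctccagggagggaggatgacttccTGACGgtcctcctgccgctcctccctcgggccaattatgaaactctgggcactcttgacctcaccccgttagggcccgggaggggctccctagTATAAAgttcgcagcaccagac
AREG (chr4:74444976-74445125): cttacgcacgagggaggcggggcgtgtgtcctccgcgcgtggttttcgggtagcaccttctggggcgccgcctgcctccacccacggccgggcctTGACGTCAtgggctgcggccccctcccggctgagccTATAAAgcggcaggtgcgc

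Both promoters held TATAAA, which starts at position -32 from the RefSeq start in EREG and at -29 in AREG and which was found in 10.7% of 35116 RefSeq promoters over the 250 bases before the start. AREG also held TGACGTCA, the full letters of the cAMP response element, at position -65, against 1.65% of all promoters. EREG held the shorter TGACG at position -125, which is contained in TGACGTCA and was present in 21.2% of all promoters. TGANTCA, where N is any base and which is thus wider than the AP-1 letters, was in neither of them and in 6.57% of all promoters. Of the 10 genes, 8 had a RefSeq promoter (not ERBB3 and NRG1), and AREG was the only one of these with TGACGTCA. These matches describe letters in a window and do not show that a factor binds there.

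EGFR was the most abundant ERBB receptor in each library. Its gene (ENSG00000146648) spans 55019021 to 55211628 of chromosome 7 (GRCh38, plus strand), and its TPM was 40.6, 43.6 and 38.2 in the A549 MOCK libraries and 38.7, 39.9 and 36.7 in the A549 Rec libraries. EGFR-AS1 overlaps it on the other strand, and the strand setting of the counting is not given in the sources used here. ERBB2 (ENSG00000141736, chromosome 17 from 39687914 to 39730426, plus strand) had a TPM of 29.3, 28.2 and 21.6 in the A549 MOCK libraries and of 26.7, 28.6 and 23.0 in the A549 Rec libraries. The neighbours MIEN1 and PGAP3 overlap it on the other strand. In both groups, the replicate 3 library was the lowest for either receptor. In bulk samples such as these, fewer cells of a type and less RNA per cell cannot be told apart.

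ERBB3 (ENSG00000065361, chromosome 12 from 56076799 to 56103505, plus strand) was the least abundant of the 3 detected receptors. Its TPM was 10.7, 10.9 and 8.04 in the A549 MOCK libraries and 14.0, 15.7 and 11.7 in the A549 Rec libraries. Every A549 Rec library was above every A549 MOCK library, and the lowest library of each group was replicate 3. AC034102.2 overlaps ERBB3 on the same strand.

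ERBB4 (ENSG00000178568, chromosome 2 from 211375717 to 212538841, minus strand) was not detectable at this depth. It had 1 read in A549 MOCK replicate 2, 1 read in A549 Rec replicate 2 and 0 reads in the other libraries. A floor of 3 reads corresponds to a TPM of 0.0395 to 0.0468 for this gene, so that neither group was above it. Of the neuregulin receptors, ERBB3 was therefore the one measured in these cells.

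Among the ligands, AREG and EREG varied most between libraries. AREG (amphiregulin, ENSG00000109321, chromosome 4 from 74445134 to 74455009, plus strand) had a TPM of 16.4, 14.5 and 51.8 in the A549 MOCK libraries and of 19.0, 20.6 and 47.7 in the A549 Rec libraries. EREG (epiregulin, ENSG00000124882, chromosome 4 from 74365143 to 74388751, plus strand) had a TPM of 17.2, 13.7 and 42.5 in the A549 MOCK libraries and of 16.9, 15.7 and 36.5 in the A549 Rec libraries. For both genes, the replicate 3 libraries were far above all others, and the groups overlapped.

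TGFA (transforming growth factor alpha, ENSG00000163235, chromosome 2 from 70447280 to 70554193, minus strand) had a TPM of 15.4, 13.7 and 12.5 in the A549 MOCK libraries and of 13.5, 12.6 and 12.6 in the A549 Rec libraries. NRG1 (neuregulin 1, ENSG00000157168, chromosome 8 from 31639386 to 32767959, plus strand) had a TPM of 8.90, 9.24 and 11.0 in the A549 MOCK libraries and of 9.05, 9.00 and 10.7 in the A549 Rec libraries. The groups overlapped for either gene, and NRG1 was highest in the replicate 3 library of each group. TGFA-IT1 overlaps TGFA, and NRG1-IT1 and NRG1-IT3 overlap NRG1, on the same strand.

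HBEGF and BTC were the lowest of the 6 chosen ligands and rested on few reads. HBEGF (heparin-binding EGF-like growth factor, ENSG00000113070, chromosome 5 from 140332843 to 140346631, minus strand) had a TPM of 2.43, 2.82 and 2.42 in the A549 MOCK libraries and of 1.39, 2.61 and 2.45 in the A549 Rec libraries. BTC (betacellulin, ENSG00000174808, chromosome 4 from 74744759 to 74794686, minus strand) had a TPM of 1.83, 3.39 and 2.97 in the A549 MOCK libraries and of 3.63, 2.13 and 3.98 in the A549 Rec libraries. The value of HBEGF in A549 Rec replicate 1 stands on 21 reads, with an exact 95% Poisson interval of 0.862 to 2.13 TPM, and BTC in A549 MOCK replicate 1 on 26 reads, with an interval of 1.20 to 2.69 TPM. These intervals cover counting error only, since PCR copies were not told apart. The groups overlapped for both genes.

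**Figure D1:**
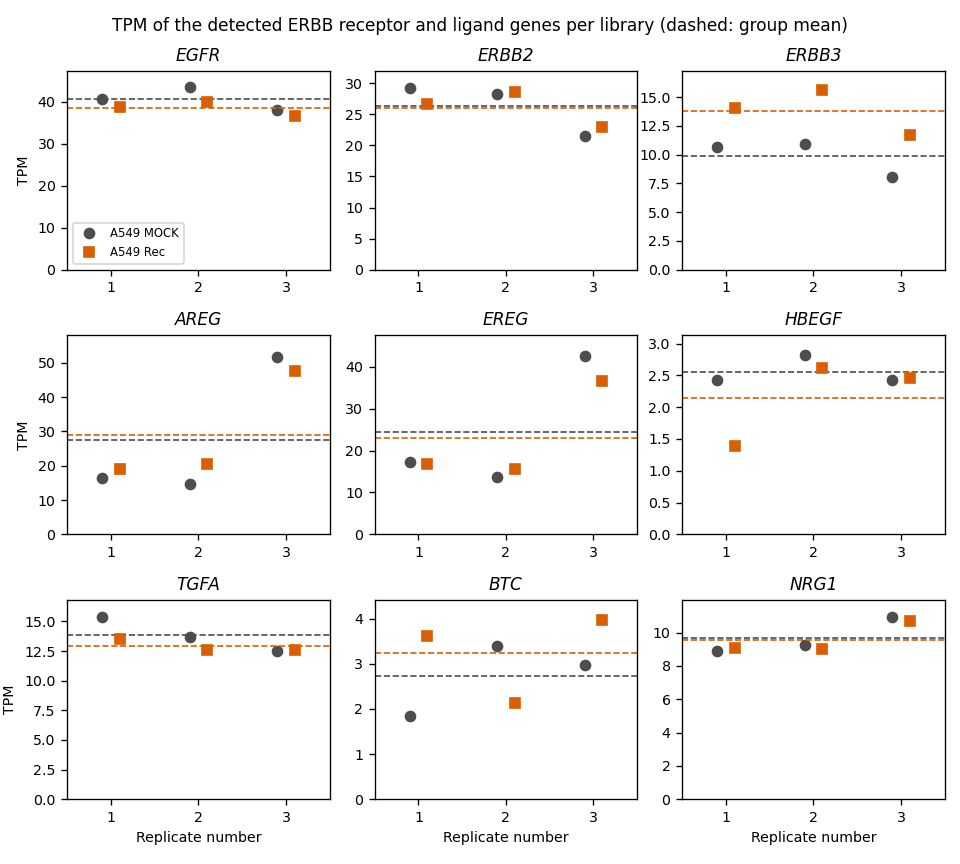
TPM (vertical axes, each from 0) of the 9 detected ERBB receptor and ligand genes by replicate number (horizontal axes), with circles for A549 MOCK, squares for A549 Rec and dashed lines for the means of 3 libraries. ERBB3 is higher in A549 Rec at each replicate number, and AREG and EREG stand apart in the replicate 3 libraries, at 47.7 to 51.8 and 36.5 to 42.5.

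Ordered by the mean TPM over the 6 libraries, the genes were EGFR (39.6), AREG (28.3), ERBB2 (26.2), EREG (23.8), TGFA (13.4), ERBB3 (11.8), NRG1 (9.64), BTC (2.99), HBEGF (2.36) and ERBB4 (0.00479). Only 2 pairs of neighbours in this order had ranges that did not overlap, NRG1 over BTC and HBEGF over ERBB4. The place of AREG and EREG depended on the library. In the 4 libraries of replicates 1 and 2, EGFR and ERBB2 were above every ligand, whereas in both replicate 3 libraries AREG was the most abundant of the 10 genes. EREG was also above EGFR in A549 MOCK replicate 3, and the values of EREG and EGFR were close in A549 Rec replicate 3, at 36.5 and 36.7.

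The balance within the family does not depend on the scaling of a library. ERBB3 made up 13.2%, 13.2% and 11.9% of the summed receptor TPM in the A549 MOCK libraries and 17.7%, 18.6% and 16.4% in the A549 Rec libraries. EGFR made up 50.4%, 52.7% and 56.3% in the A549 MOCK libraries and 48.7%, 47.4% and 51.4% in the A549 Rec libraries. AREG and EREG together made up 49.2% to 57.9% of the summed TPM of the 6 ligands in replicates 1 and 2, against 76.6% in A549 MOCK replicate 3 and 73.9% in A549 Rec replicate 3. The ratio of AREG to EREG ranged from 0.951 in A549 MOCK replicate 1 to 1.31 in A549 Rec replicate 2.

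A549 Rec was compared with A549 MOCK to ask whether recoverin went with a change in these receptors and ligands. No tested gene of the family passed both thresholds, a fold change of 2 or more and an adjusted p under 0.05. The test was limma on log2(TPM + 1) over 17408 genes, where RCVRN alone passed, that is 0.00574% of the genes tested (0.00575% after rescaling). ERBB4 did not pass the filter on low TPM, and ERBB3 and AREG were not tested. Of the 7 genes left, 0 were called, and 0 had an unadjusted p under 0.05, whether in limma on TPM, with the replicate number as a block or in limma on the recovered reads with voom weights.

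ERBB3 was higher in A549 Rec within each pair of libraries with the same replicate number. The ratio of A549 Rec to A549 MOCK was 1.32, 1.44 and 1.45 in pairs 1, 2 and 3. The mean TPM was 9.87 ± 1.59 (SD, n = 3) for A549 MOCK and 13.8 ± 1.99 (SD, n = 3) for A549 Rec, a difference of 0.45 on the log2(TPM + 1) scale with a standard error of 0.16. After rescaling without mitochondrially encoded genes, ERBB3 was at 12.4, 12.9 and 12.3 in the A549 MOCK libraries and at 17.0, 18.1 and 16.0 in the A549 Rec libraries. The spread within each group was then smaller, with means of 12.5 ± 0.345 and 17.0 ± 1.03 (SD, n = 3 each), and the ratios were 1.37, 1.40 and 1.30. With any single library left out, the difference lay between 0.32 and 0.55. Of all tested genes, 2.47% had every A549 Rec library above every A549 MOCK library and 13.1% were higher in A549 Rec in all 3 pairs. As ERBB3 was chosen for this pattern, nothing is read from these shares, the standard error, the spread or the range with 1 library left out. With every A549 Rec library above every A549 MOCK library, leaving out 1 library could not change the sign.

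EGFR was lower in A549 Rec in all 3 pairs, by ratios of 0.953, 0.915 and 0.961. It differed by -0.08 on the log2 scale (standard error 0.10, adjusted p = 0.9997 from limma), and the 95% interval from -0.32 to 0.16 leaves out a change of 2-fold in either direction. Of all tested genes, 9.66% were lower in A549 Rec in all 3 pairs. ERBB2 differed by -0.01 (standard error 0.15, 95% interval -0.36 to 0.34, adjusted p = 0.9997 from limma), with ratios of 0.910, 1.01 and 1.06 in the pairs.

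Among the ligands, the pairs did not share a direction. AREG was higher in A549 Rec in pairs 1 and 2, with ratios of 1.16 and 1.41, and lower in pair 3, with a ratio of 0.921. EREG had ratios of 0.982, 1.15 and 0.858. Its log2 difference was -0.02 with a 95% interval from -1.11 to 1.07, which the replicate block narrowed to -0.27 to 0.23 (adjusted p = 0.9997 from limma and 0.9981 with the block).

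TGFA differed by -0.09 (95% interval -0.35 to 0.17) and NRG1 by -0.01 (95% interval -0.31 to 0.28) on the log2 scale. HBEGF differed by -0.20 (95% interval -0.69 to 0.29) and BTC by 0.18 (95% interval -0.41 to 0.77), and both had pairs on either side. After rescaling, EGFR, ERBB2, TGFA and HBEGF were lower in A549 Rec in all 3 pairs, with ratios of 0.861 to 0.995, 0.951 to 0.986, 0.896 to 0.917 and 0.598 to 0.908, and none of them was called. On that scale, 15.5% of all tested genes were lower in A549 Rec in all 3 pairs. For HBEGF and BTC, the pseudocount of 1 understates the change. For these ligands limma gave an adjusted p of 0.9997.

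**Figure D2:**
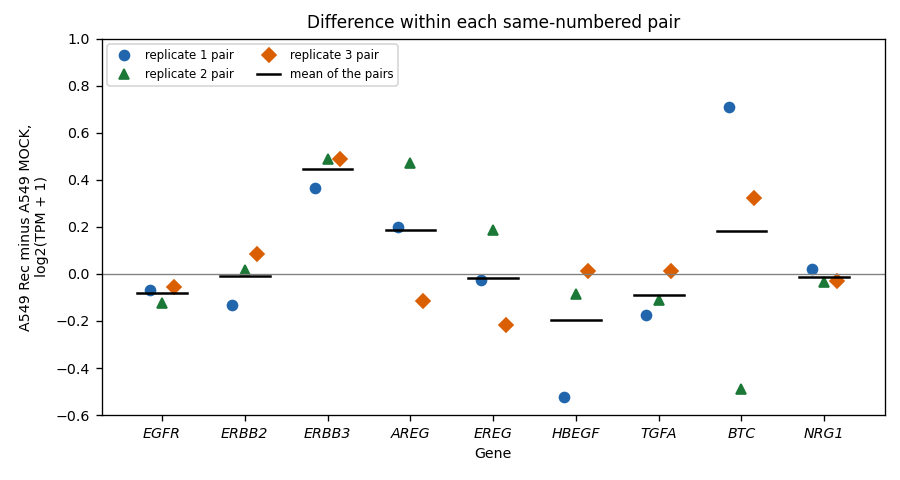
Difference between A549 Rec and A549 MOCK on the log2(TPM + 1) scale (vertical axis) within each same-numbered pair for 9 genes (horizontal axis), with a horizontal bar at the mean of the 3 pairs. ERBB3 lies above 0 in all pairs and EGFR below 0 in all pairs, while AREG, EREG, HBEGF, BTC, TGFA, NRG1 and ERBB2 have pairs on both sides.

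The replicate 3 libraries were compared with those of replicates 1 and 2, with the group as a covariate. This comparison was set together with the choice of genes, with earlier results of these data known, and AREG was chosen for its pattern. The replicate 3 libraries also stand apart in the share of mitochondrial transcripts. The titles of these libraries carry no number, and no label says that they were prepared apart. The study's methods name 2 sequencers without saying which libraries ran on which, so that a sequencing batch could not be tested. Beyond the rescaling, the part of the mitochondrial share in the differences was not tested. EREG was higher in replicate 3 and passed the test, whereas ERBB2 was lower with the deposited TPM only. Over the libraries, EREG (r = 0.981) and NRG1 (r = 0.955) moved with AREG and ERBB2 moved against it (r = -0.955). The tests of these genes are thus not independent of the choice of AREG.

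AREG was 3.35-fold higher in replicate 3 than the mean of replicates 1 and 2 in A549 MOCK and 2.41-fold higher in A549 Rec. After rescaling, the folds were 4.37 and 2.80, with values of 19.0, 17.2 and 79.1 in the A549 MOCK libraries and of 22.9, 23.7 and 65.2 in the A549 Rec libraries. The log2 difference was 1.46 (standard error 0.12) with the deposited TPM and 1.76 (standard error 0.14) after rescaling. AREG was chosen for its pattern, and this difference is a description.

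EREG was 2.75-fold higher in replicate 3 in A549 MOCK and 2.24-fold higher in A549 Rec. On the log2 scale it differed by 1.26 (standard error 0.12, adjusted p = 0.0107 from limma) with the deposited TPM and 1.56 (standard error 0.14, adjusted p = 0.00927 from limma) after rescaling. Without A549 MOCK replicate 3, the difference was 1.12 and the adjusted p from limma 0.0646, so that the call was lost, and it was kept without each of the other libraries. In an exact permutation test on TPM, 2 libraries against 4 gave a two-sided p of 0.0667, the smallest that this design allows.

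EREG was the 1 gene called among the 7 tested members, where 1.14% of all 17408 genes passed the same thresholds with the deposited TPM, 0.419% higher and 0.718% lower, and 0.777% after rescaling. Over all genes, 198 passed, or 6 without A549 MOCK replicate 3, 130 without A549 MOCK replicate 2 or A549 Rec replicate 2 and 403 without A549 Rec replicate 3. At any fold change, 2 of the 7 members had an adjusted p under 0.05, EREG and ERBB2, against 26.6% of all genes, 1.84% higher and 24.8% lower. That share fell to 10.5% after rescaling. The rescaling also moved the median log2 difference of all tested genes from -0.19 to 0.08, and the direction of a small difference has to be read against it.

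NRG1 was higher in both replicate 3 libraries than in all others, at 11.0 and 10.7 against at most 9.24. It differed by 0.24 on the log2 scale (standard error 0.08, adjusted p = 0.0761 from limma) with the deposited TPM. After rescaling, the difference rose to 0.52 (standard error 0.09, adjusted p = 0.0294 from limma), at values of 10.3, 11.0 and 16.7 in the A549 MOCK libraries and of 10.9, 10.4 and 14.6 in the A549 Rec libraries. Whether NRG1 passed an adjusted p under 0.05 thus depended on the scaling, and its change was below 2-fold. AREG, EREG and NRG1 were above all other libraries in both replicate 3 libraries with the deposited TPM, as were 6.40% of all tested genes. After rescaling, HBEGF and BTC were so too, as were 27.3% of all genes. For HBEGF this rested on 3.36 in A549 Rec replicate 3 (39 reads) against 3.35 in A549 MOCK replicate 2 (42 reads), nearly a tie.

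Among the tested receptors, neither EGFR nor ERBB2 had an adjusted p under 0.05 on both scales. With the deposited TPM, EGFR, ERBB2 and TGFA were below all other libraries in both replicate 3 libraries, as were 44% of all tested genes, and after rescaling no member was, against 14.8% of all genes. ERBB2 had a log2 difference of -0.33 (standard error 0.07, adjusted p = 0.0244 from limma) with the deposited TPM and of -0.04 (adjusted p = 0.644 from limma) after rescaling, where it was at 31.5 to 33.9 in all 6 libraries. With the deposited TPM, ERBB2 no longer passed an adjusted p under 0.05 without A549 MOCK replicate 1, 2 or 3 or A549 Rec replicate 2 (adjusted p = 0.0699 to 0.155 from limma). EGFR went from -0.12 (adjusted p = 0.224 from limma) to 0.17 (adjusted p = 0.124 from limma). The difference of ERBB3 was -0.35 with the deposited TPM and -0.08 after rescaling.

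TGFA, HBEGF and BTC had no adjusted p under 0.05 on either scale. TGFA went from -0.12 to 0.15, HBEGF from 0.07 to 0.31 and BTC from 0.28 to 0.53, and the smallest adjusted p from limma among them was 0.239, for BTC after rescaling. The replicate 3 difference was also compared between the groups. For the 7 tested members, the difference in A549 Rec minus that in A549 MOCK lay between -0.30 (EREG) and 0.32 (HBEGF) on the log2 scale. As each group has a single replicate 3 library, this comparison cannot show whether the groups share the difference.

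**Figure D3:**
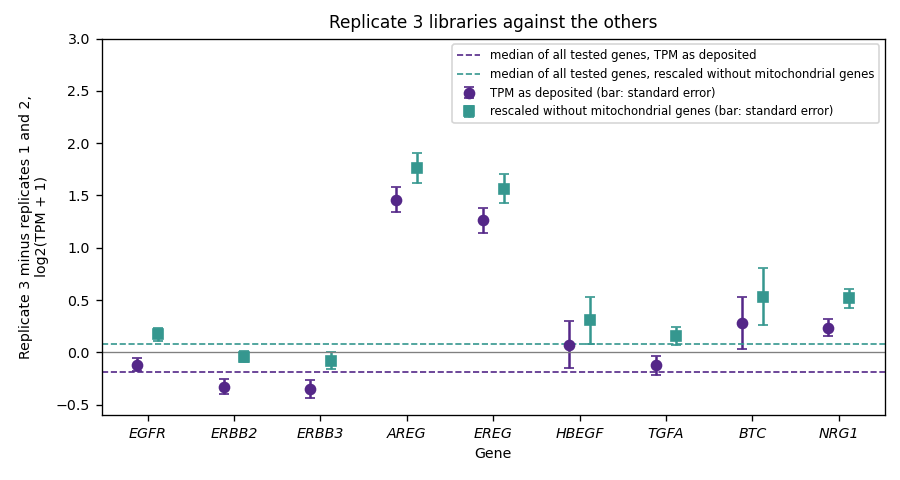
Difference of the replicate 3 libraries from those of replicates 1 and 2 on the log2(TPM + 1) scale (vertical axis, bars show the standard error) for 9 genes, as deposited (circles) and after rescaling without mitochondrially encoded genes (squares), with dashed lines at the median of all tested genes. AREG and EREG lie above 1 on both scales, while EGFR and TGFA change sign.

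The surroundings of AREG and EREG on chromosome 4 were examined next. Taking the AREG start as 0, EREG starts at -80.0 kb and BTC, on the other strand, at 349.6 kb. EPGN (epigen), a further EGFR ligand that starts at -136.7 kb, had 1 read in A549 MOCK replicate 3, 2 reads in A549 Rec replicate 3 and 0 reads in the other libraries, which is at or under the floor of 3 reads. Within 500 kb of AREG, the chemokine genes CXCL3 and CXCL2 also passed the test, with log2 differences of 1.38 and 1.04 (adjusted p = 0.0107 from limma for each). CXCL5, between them and the window's edge, did not, at -0.25 (adjusted p = 0.204 from limma). PPBP, MTHFD2L, AC093677.1, AC093677.2 and BTC, the other tested genes of the window, did not pass either (adjusted p = 0.0967 to 0.922 from limma). Over all tested genes, 0.419% were called higher and 0.718% lower. The window and these neighbours were chosen after the values of AREG and EREG had been seen.

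**Figure D4:**
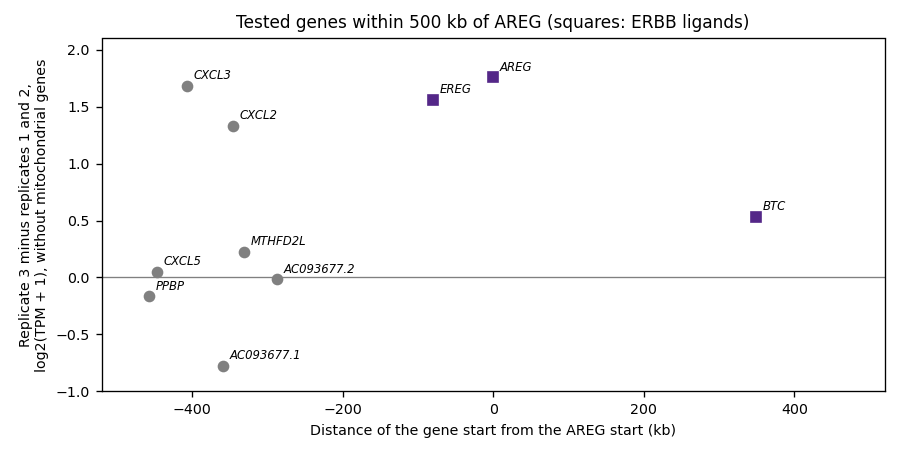
Difference of the replicate 3 libraries from those of replicates 1 and 2 on the log2(TPM + 1) scale after rescaling (vertical axis) against the distance of each gene start from the AREG start in kb (horizontal axis), with squares for ERBB ligands and circles for other tested genes. AREG, EREG, CXCL2 and CXCL3 lie above 1, and genes between and around them do not.

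The genes most like AREG over the 6 libraries, by Pearson correlation of log2(TPM + 1) among the 12346 genes with a mean TPM of at least 5, were STAMBPL1 (r = 0.998), DDIAS (r = 0.992) and SNHG8 (r = 0.991). EREG was at rank 14 (r = 0.981) and NRG1 at rank 54 (r = 0.955). The genes most like ERBB3 were BORCS5 (r = 0.995), MORC2 (r = 0.993) and LMO7 (r = 0.991). LMO7 was at 7.21, 7.25 and 6.55 in the A549 MOCK libraries and at 8.01, 8.05 and 7.38 in the A549 Rec libraries. These correlations describe 6 libraries that share their scaling, and no test was made of them.

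The other genes of the pathway were examined as 56 genes in 7 lists, of which 53 passed the filter on low TPM. In A549 Rec against A549 MOCK, limma called 0 of the 53 genes, and 0 had an unadjusted p under 0.05 (1 with the replicate block). The median log2 difference over the lists was 0.03, against 0.02 over all tested genes.

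Of the other ligands, EGF, NRG2 and NRG4 were detected. EGF had a TPM of 0.989 to 1.93 over the 6 libraries, and NRG4 had a TPM of 3.29 to 5.49. NRG4 differed by 0.24 (standard error 0.17) and EGF by 0.22 (standard error 0.21) between A549 Rec and A549 MOCK on the log2 scale. NRG3 had 1 read over all libraries. Of the 4 genes for ligand release, ADAM10 (32.7 to 43.1) and ADAM17 (25.0 to 29.0) encode the proteases and RHBDF1 and RHBDF2 the iRhom proteins that carry ADAM17 to the surface. RHBDF1 differed by -0.16 (standard error 0.11) and RHBDF2 by 0.06 (standard error 0.24).

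The receptor adaptors were expressed throughout, with SHC1 at 155.7 to 201.1 and GRB2 at 71.4 to 101.3. EPS15, which acts in receptor uptake, and GRB2, which links receptors to RAS activation, had the largest differences of their list, at 0.17 (standard error 0.12) and 0.16 (standard error 0.15). In the RAS-RAF-MEK-ERK cascade, HRAS had the largest difference, 1.19 with a standard error of 0.78. It had a TPM of 1.28, 5.69 and 4.23 in the A549 MOCK libraries and of 30.8, 7.48 and 2.56 in the A549 Rec libraries, so that A549 Rec replicate 1 stood far above all other libraries and the groups overlapped.

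In the PI3K-AKT arm, AKT1 differed by 0.12 (standard error 0.14). Among the feedback inhibitors, which dampen receptor or ERK signaling, DUSP6 differed by -0.15 (standard error 0.14) and SPRY4 by -0.13 (standard error 0.16). Of the transcripts known to rise with ERK signaling, IER3 differed by -0.37 (standard error 0.52) and FOS by 0.32 (standard error 0.32). For each list gene named here, limma gave an adjusted p of 0.9997.

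In replicate 3 against replicates 1 and 2, 19 of the 53 genes had an adjusted p under 0.05 with the deposited TPM, 3 higher and 16 lower, that is 35.8% against 26.6% of all genes. After rescaling, 8 were higher and 0 were lower, that is 15.1% against 10.5% of all genes, of which 6.22% were higher and 4.30% lower. Without A549 MOCK replicate 3 or A549 Rec replicate 2, 0 of the 53 genes passed with the deposited TPM, against 4 to 26 without each of the other libraries. The median over the lists went from -0.26 to 0.03. Of the 16 genes that were lower with the deposited TPM, none passed after rescaling, and 3 were higher on both scales, ERRFI1, EGR1 and IER3. By list, the genes that passed after rescaling were 3 of 10 feedback inhibitors, 4 of 9 transcripts known to rise with ERK signaling and 1 of 10 cascade genes. At any adjusted p, 6 of these 9 transcripts were higher and 3 lower after rescaling, against 3 higher and 6 lower with the deposited TPM. All 53 list genes moved the same way, from 9 higher and 44 lower with the deposited TPM to 29 higher and 24 lower after rescaling. The median of all tested genes also rose, from -0.19 to 0.08, so that nothing is read from the turn of the 9 transcripts. FOS was at 8.95, 8.59 and 3.30 TPM in the A549 MOCK libraries and at 7.36, 8.61 and 8.91 in the A549 Rec libraries. With the deposited TPM, 5 of 10 cascade genes, 4 of 8 genes of the PI3K-AKT arm and 3 of 9 adaptors were lower.

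IER3, an early response gene, was at 2.05, 1.20 and 4.47 in the A549 MOCK libraries and at 0.591, 1.01 and 4.34 in the A549 Rec libraries, on 4 to 34 reads. It differed by 1.33 on the log2 scale (standard error 0.24, adjusted p = 0.0155 from limma) with the deposited TPM and 1.65 (adjusted p = 0.0205 from limma) after rescaling. EGR1, an early response transcription factor, was at 1.58, 2.01 and 3.01 in the A549 MOCK libraries and at 1.28, 1.64 and 3.75 in the A549 Rec libraries, a log2 difference of 0.74 (standard error 0.19, adjusted p = 0.0371 from limma). With the deposited TPM, both replicate 3 libraries were above the others for these genes, as they were for 6.40% of all tested genes. IER3 and EGR1 were named for their replicate 3 difference, so that this order adds nothing to it.

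ERRFI1, an inhibitor that binds the kinase domain of EGFR, was at 47.8, 53.6 and 72.7 in the A549 MOCK libraries and at 54.3, 56.4 and 71.0 in the A549 Rec libraries. It differed by 0.43 on the log2 scale (standard error 0.08, adjusted p = 0.0149 from limma) with the deposited TPM and 0.73 (standard error 0.09, adjusted p = 0.0167 from limma) after rescaling. LRIG1, which promotes the loss of ERBB receptors, was lower with the deposited TPM, at -0.50 (adjusted p = 0.0482 from limma), and was at -0.27 (adjusted p = 0.234 from limma) after rescaling. The genes with an adjusted p under 0.05 after rescaling also included the phosphatase genes DUSP5 and DUSP6, MYC and PHLDA1, with log2 differences of 0.26 to 0.57.

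In the remaining lists, 1 cascade gene passed after rescaling, with a log2 difference of at most 0.263. The larger differences of these lists did not pass. RHBDF2 went from -0.59 (adjusted p = 0.0169 from limma) to -0.31 (adjusted p = 0.0820 from limma). SOS1 went from -0.39 (adjusted p = 0.0250 from limma) to -0.10, and SOS2 from -0.30 (adjusted p = 0.0435 from limma) to -0.02. NRG2, NRG4, ADAM10 and HRAS passed on neither scale, with deposited differences of -0.57, -0.36, -0.24 and -0.89.

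**Figure D5:**
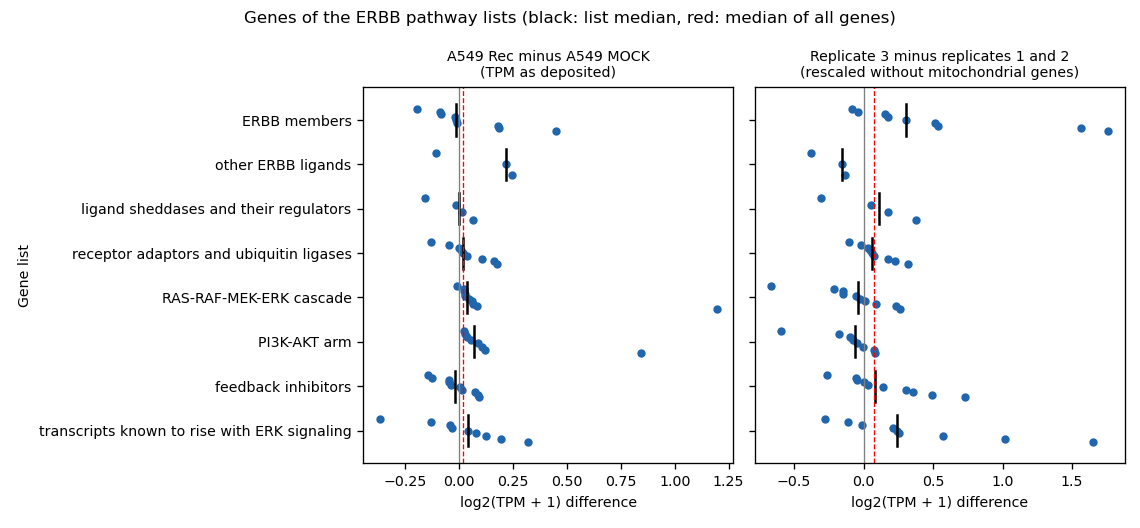
Differences on the log2(TPM + 1) scale (horizontal axes) of the tested genes of 8 lists (rows), for A549 Rec minus A549 MOCK with the deposited TPM (left) and for replicate 3 minus replicates 1 and 2 after rescaling (right), with black bars at list medians and a red dashed line at the median of all tested genes. On the left HRAS (1.19) has the largest difference, and on the right AREG (1.76), EREG (1.56), IER3 and EGR1 lie above 1.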

How the data were processed

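The authors trimmed paired reads with Trimmomatic 0.38, mapped them with HISAT2 2.1.0 and counted them per gene with featureCounts 1.6.3, and deposited TPM summing to 1000000 per library. The paper names GRCh38. The submitters' processing notes list a mouse build, but the gene IDs and coordinates are human. The annotation release and the strand setting are not given in the sources used here. Reads were recovered as whole numbers (within 0.01) from the TPM, by a whole gene length that fits all 6 libraries, for 29891 of 29900 detected genes. That length was chosen to give whole reads, and equals the GENCODE v44 exon length for 14535 genes.

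Groups and replicate numbers came from the sample descriptions. limma 3.58.1 in R 4.3.3 (lmFit, eBayes with trend) was run on log2(TPM + 1) of the 17408 genes that reached 1 TPM in 3 or more libraries. Called genes had a fold change of 2 or more and an adjusted p (Benjamini-Hochberg) under 0.05. The fit of A549 Rec against A549 MOCK was also run on simulated data, with independent noise in each library and changes planted in the higher genes only. That simulation held no shift shared by the replicate 3 libraries. It thus does not bear on the replicate 3 comparison or on genes with few reads. After subtraction of the group means, libraries with the same number correlated at 0.115, 0.164 and 0.342 for replicates 1, 2 and 3. A549 MOCK replicate 1 correlated at 0.128 with A549 Rec replicate 2, and A549 MOCK replicate 2 at 0.0683 with A549 Rec replicate 1. The numbers 1 and 2 thus do not mark clear pairs, and only replicate 3 stood apart. The replicate number was also fitted as a block. As nothing says that the libraries came from separate cultures, p-values measure the spread between these samples. No set test was run.

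The members and lists were chosen with earlier results of these data known. From each list the text names the 2 tested genes with the largest difference in either comparison, except for some genes that are not reported here. The neighbours of AREG, the markers' values and the further list genes that passed after rescaling were named after their values were seen. The alternatives were a pseudocount of 0.1, no filter, rescaling without mitochondrially encoded genes, quantile normalization, no trend, the replicate block, no group term, no fold change threshold, each library left out and, added after seeing the data, voom weights on the recovered reads. Poisson intervals were computed with SciPy 1.17.1.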

Additional observations from a re-analysis of the deposited data

How the results depend on the processing

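In A549 Rec against A549 MOCK, 0 of the tested members and 0 of the list genes were called under any alternative. Over all genes, 1 was called, or 6 without the filter or without the trend, and 1 to 2 with 1 library left out. The replicate block left the count at 1 gene (RCVRN) and 0 members, and changed no call, with or without the rescaling. With 1 library left out, the log2 differences that changed sign ranged from -0.141 to 0.0760 for ERBB2, -0.23 to 0.75 for AREG, -0.39 to 0.45 for EREG, -0.00543 to 0.39 for BTC and -0.0893 to 0.0678 for NRG1.

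In replicate 3 against the others, 198 genes were called, or 121 with quantile normalization and 4638 without the fold change threshold, and 6 to 403 with 1 library left out, the lowest being without A549 MOCK replicate 3. That fit left 0 members called, and 1 was called without any other library. Of the members, 2 passed without the fold change threshold. In the lists 1 gene was called, or 2 with a pseudocount of 0.1, after rescaling or with voom weights, 19 without the fold change threshold, and 0 to 1 with 1 library left out (0 without A549 MOCK replicate 3 or A549 Rec replicate 2). EGFR turned from -0.12 to 0.17 after rescaling, 0.12 with quantile normalization and 0.15 with voom weights, and TGFA from -0.12 to 0.15, 0.0324 and 0.14. HBEGF ranged from -0.0833 to 0.23 with 1 library left out. ERBB2 no longer passed an adjusted p under 0.05 after rescaling, with quantile normalization, without the trend (adjusted p = 0.0543 from limma) or with voom weights. NRG1 passed an adjusted p under 0.05 after rescaling, with quantile normalization and with voom weights only. The voom fit also left out the mitochondrially encoded genes, and the cause of these changes was not tested. Few reads limit HBEGF, BTC, IER3 and EGR1.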
